A study of Mus musculus with 19 samples.

Results

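Chemokines are small secreted proteins that steer leukocytes, and 6 chemokine genes were followed here in mouse splenic natural killer (NK) cells given interleukin-2 (IL-2) with or without a Janus kinase (JAK) inhibitor. Ccl3, Ccl4, Ccl5 and Xcl1 were taken as NK-secreted chemokines, and Cxcl9 and Cxcl10 as interferon-induced chemokines. They were picked by name from the 19752 genes with a probe set of 1 symbol. Each of the 6 had exactly 1 such probe set, so no choice among probe sets was needed.

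The series held 19 Affymetrix Mouse Gene 1.0 ST arrays, 1 per sample, in 9 groups. The cells came from spleens of male C57BL/6 mice 6 weeks of age, were enriched by negative selection (EasySep, so that unwanted cells are removed and NK cells left untouched), and carried NK1.1 as the labelled phenotype marker. The untreated group (3 samples) received neither IL-2 nor inhibitor, and the IL-2 group (4 samples) received IL-2 at 250 U/ml. The series design gives 8 h of culture. Only the titles of untreated and IL-2 replicates 3 and 4 state that time, so for the other samples it rests on the series design. The other groups received the same IL-2 with a compound coded 6226, labelled a JAK3 inhibitor, at 0.25, 1 or 4 µM (2 samples each), or a compound coded 3404, labelled a JAK1 inhibitor, at 0.25 or 1 µM (2 samples each) or at 0.0625 or 4 µM (1 sample each). No inhibitor was given without IL-2. The labels do not give the mouse or culture behind each sample, so the p-values cover the spread among the samples at hand, part or all of which may be technical.

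The IL-2 receptor passes its signal through JAK1, bound to the beta chain, and JAK3, bound to the common gamma chain, to the transcription factor STAT5. Ccl3, Ccl4 and Ccl5 draw monocytes and T cells, and Xcl1 draws cross-presenting dendritic cells through XCR1. Cxcl9 and Cxcl10 are ligands of CXCR3 and are classic targets of interferon-gamma; interferon receptors signal through JAK1 but not JAK3.

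Promoter sequence is shown for 3 of the genes whose levels the results turn on, because interferon-induced genes are known for interferon-response and kappaB elements upstream of their start. RefSeq (GRCm38.p6) gave the 250 bases before the start for 4 of the 6 genes (Ccl3, Xcl1, Cxcl9 and Cxcl10; Ccl4 and Ccl5 had no entry). The windows are chr5:92348890-92349139 for Cxcl10, chr5:92328080-92328329 for Cxcl9 and chr1:164935523-164935772 for Xcl1, all on the minus strand and printed 5′ to 3′ along the gene. Capitals mark an interferon-stimulated response element (ISRE) core and kappaB matches.
Cxcl10: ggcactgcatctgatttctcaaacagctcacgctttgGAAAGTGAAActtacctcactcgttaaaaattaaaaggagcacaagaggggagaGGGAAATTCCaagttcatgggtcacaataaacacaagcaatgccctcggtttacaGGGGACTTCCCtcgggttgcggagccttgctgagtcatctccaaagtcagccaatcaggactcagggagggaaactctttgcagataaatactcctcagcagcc
Cxcl9: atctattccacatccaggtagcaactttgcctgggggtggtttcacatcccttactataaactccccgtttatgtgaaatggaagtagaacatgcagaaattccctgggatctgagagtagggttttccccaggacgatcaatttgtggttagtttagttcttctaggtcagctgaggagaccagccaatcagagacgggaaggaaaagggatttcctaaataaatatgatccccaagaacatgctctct
Xcl1: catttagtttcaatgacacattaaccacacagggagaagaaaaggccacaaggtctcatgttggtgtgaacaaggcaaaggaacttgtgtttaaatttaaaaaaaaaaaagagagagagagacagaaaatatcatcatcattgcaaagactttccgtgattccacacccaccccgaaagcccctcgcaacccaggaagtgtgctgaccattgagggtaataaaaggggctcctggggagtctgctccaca

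The Cxcl10 window held the ISRE core (GAAA, any pair of bases, GAAA) at positions -213 to -204 from the start. It also held 3 kappaB matches on the plus strand, at -159 to -150, -104 to -95 and, overlapping it, -103 to -94, the last of which also reads as a match on the minus strand, and the AP-1 letters TGANTCA at -74 to -68. The Cxcl9 window held only TATAAA, at -195 to -190, and the Xcl1 and Ccl3 windows held none of the 5 motifs searched on both strands, which also included the STAT letters (TTC and GAA, 3 bases apart). Of 32851 RefSeq promoters cut to the same length, 2.98% held the ISRE core, 7.02% the STAT letters, 7.25% a kappaB match, 6.75% the AP-1 letters and 12.4% TATAAA. A match is a description of letters and not evidence of binding, and a missing match says only that the letters are not in these 250 bases.

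The deposited intensities lay on 2 scales. In 7 samples (untreated replicate 2, IL-2 replicates 1 and 2, and replicate 1 of both inhibitors at 0.25 and 1 µM) the median of the log2 intensities was 7.49 to 7.59, and in the other 12 it was 5.70 to 5.90. Levels below are therefore scale-adjusted log2 intensities, in which a gene's fitted difference between these sets was taken off the high-intensity samples. Differences are limma log2 differences fitted over all 19 samples, with the standard error (SE) and a Benjamini-Hochberg adjusted p over all 19752 genes; a gene was called at an adjusted p below 0.05. Both groups of 1 sample borrow their spread from the others in this fit.

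IL-2 raised 5 of the 6 chemokine genes, and 6.56% of all genes were called higher in that comparison. The rise was 23.0-fold for Cxcl9, 11.2-fold for Cxcl10, 10.6-fold for Xcl1, 7.38-fold for Ccl3 and 5.74-fold for Ccl4. Ccl5 was not called, with a log2 difference of -0.23 ± 0.12 (SE; adjusted p = 0.292, limma). The median log2 difference over the 6 genes was 3.15, against -0.01 over all genes.

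Among the NK-secreted genes, Xcl1 lay at 7.002, 6.603 and 6.930 in the 3 untreated samples and at 9.952, 9.998, 10.513 and 10.559 in the 4 IL-2 samples (replicates in order here and below). All IL-2 samples were above all untreated samples, and the fitted difference was 3.41 ± 0.20 (adjusted p = 1.07e-09, limma). Ccl3, the gene of macrophage inflammatory protein 1-alpha, lay at 8.89, 8.20 and 8.35 without IL-2 and at 11.02, 11.10, 11.79 and 11.56 with it. These groups did not overlap either, and the difference was 2.88 ± 0.23 (adjusted p = 3.11e-08, limma). Ccl4, the neighbouring gene of the related protein 1-beta, lay at 5.51, 5.01 and 5.20 without IL-2 and at 7.46, 7.49, 8.01 and 8.08 with it. The Ccl4 difference was 2.52 ± 0.18 (adjusted p = 8.18e-09, limma), again with no overlap. Here and below, a lack of overlap only describes the samples, since the share of all genes without overlap was not computed.

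Ccl5, the gene of RANTES, did not rise. It lay at 11.19, 11.02 and 10.84 in the untreated samples and at 10.61, 10.68, 10.88 and 10.95 in the IL-2 samples. The groups overlapped, since untreated replicate 4 was below both low-intensity IL-2 samples. After quantile normalization of the 19 arrays the fitted Ccl5 difference was -0.35 and passed the threshold (adjusted p = 0.0140, limma), so its place on the not-called side depends on the scaling.

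Of the interferon-induced genes, Cxcl9 lay at 5.67, 6.23 and 6.35 in the untreated samples and at 10.42, 10.31, 10.97 and 10.72 in the IL-2 samples. Its difference of 4.52 ± 0.23 (adjusted p = 1.05e-10, limma) was the widest of the 6. Cxcl10 lay at 6.5, 5.98 and 6.18 without IL-2 and at 9.59, 9.55, 10.19 and 9.47 with it, a difference of 3.48 ± 0.27 (adjusted p = 2.45e-08, limma). The groups of both genes were fully apart, and 1 IL-2 sample, replicate 3, stood above the other 3 for Cxcl10.

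**Figure D1:**
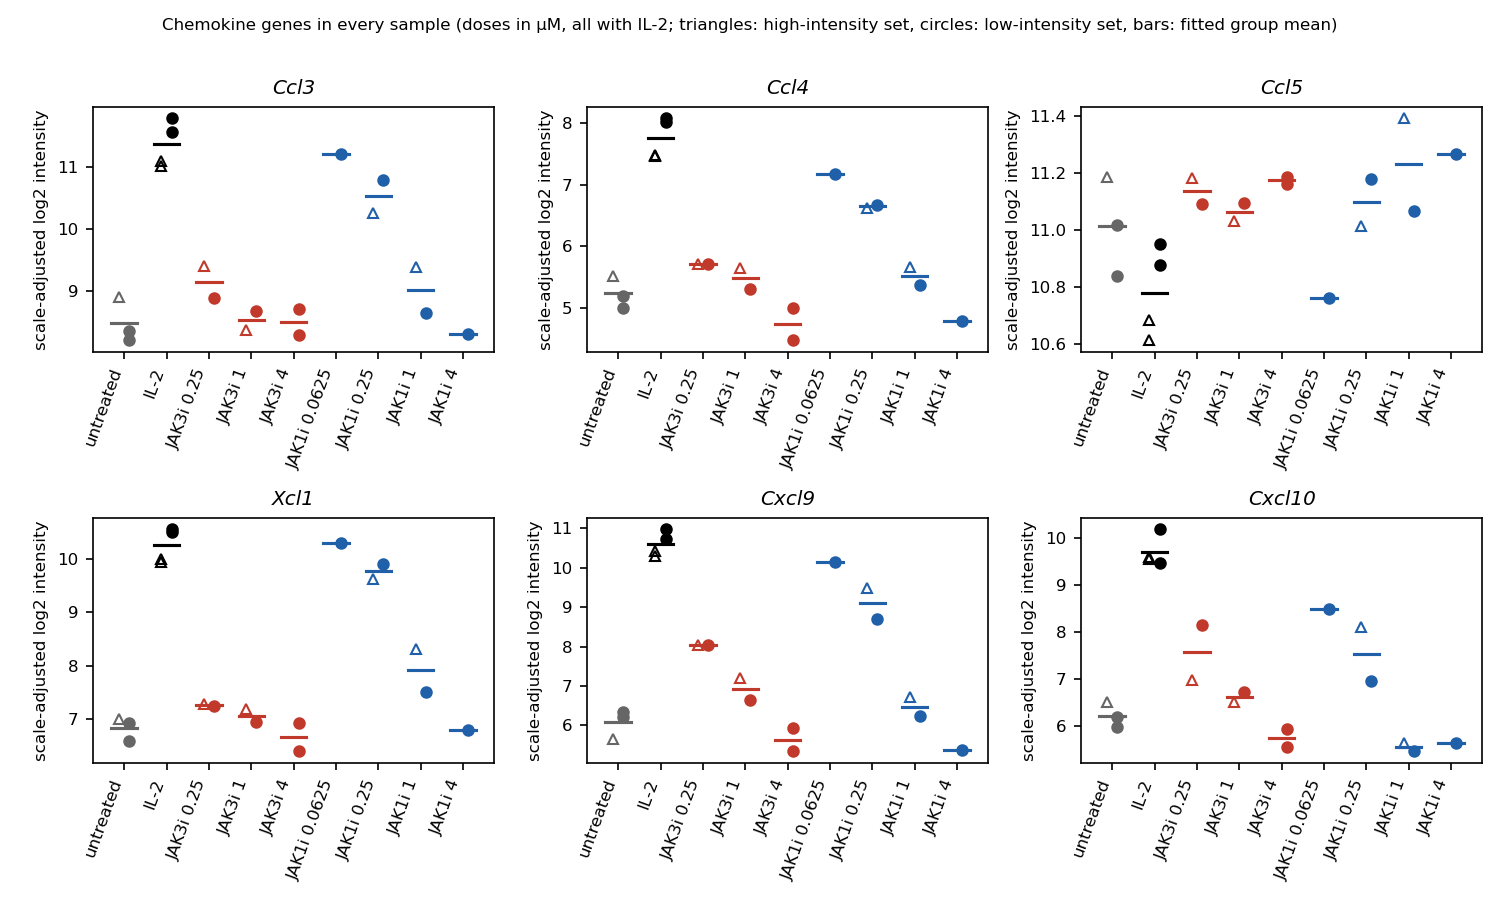
Scale-adjusted log2 intensity (y axis) of each chemokine gene in every sample, by treatment group (x axis, inhibitor doses in µM, all with IL-2); triangles are high-intensity and circles low-intensity samples, and bars are fitted group means. The other 5 genes are high with IL-2 and return toward the untreated level with dose, while Ccl5 stays between 10.61 and 11.39 throughout.

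The IL-2 effect was also looked at within each intensity set, where the high-intensity set holds 1 untreated and 2 IL-2 samples and the low-intensity set 2 of each. Ccl3 rose by 2.17 in the high-intensity set and by 3.396 in the low-intensity set, and Ccl4 by 1.96 and 2.94. Cxcl9 gave 4.70 and 4.56. The high-intensity minus low-intensity difference was -1.23 ± 0.27 (SE) for Ccl3, -0.98 ± 0.27 for Ccl4 and 0.14 ± 0.30 for Cxcl9. With 1 untreated sample in the high-intensity set, a missing call does not show that the sets agree. None of the 6 genes passed a test of the difference between the sets, nor did any gene (limma interaction term, 0 called; 2950 genes had an unadjusted p below 0.05). The smallest adjusted p among the 6 was 0.197, for Ccl3.

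The JAK3 inhibitor lowered the same 5 genes at every dose tested. At 0.25 µM, 5 of the 6 were called lower, against 2.26% of all genes, at 1 µM 5 of 6 against 3.69%, and at 4 µM 5 of 6 against 4.50%. The median log2 difference of the 6 genes from IL-2 alone went from -2.18 at 0.25 µM to -2.96 at 1 µM and -3.31 at 4 µM. Ccl5 was above its IL-2 level at each dose, by 0.36, 0.28 and 0.39, and was not called (adjusted p from 0.0982 to 0.329, limma). After quantile normalization it was called higher at all 3 doses (0.42, 0.35 and 0.49, adjusted p = 0.0135, 0.0331 and 0.00478, limma), and with only the groups compared at 0.25 and 1 µM.

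With 0.25 µM of the JAK3 inhibitor, the first and second Xcl1 samples lay at 7.29 and 7.26, close to the untreated samples. The difference from IL-2 alone was -2.98 ± 0.23 (adjusted p = 7.72e-08, limma). Cxcl9 lay at 8.04 in both samples at that dose, far above its untreated values, and differed from IL-2 alone by -2.56 ± 0.26 (adjusted p = 1.98e-06, limma). Cxcl10 was spread more widely, at 6.97 and 8.16, with a difference of -2.14 ± 0.30 (adjusted p = 0.000119, limma). In the low-intensity set alone this Cxcl10 difference was -1.67 and missed the threshold (adjusted p = 0.0570, limma). Ccl3 (9.40 and 8.89) and Ccl4 (5.71 and 5.72) differed from IL-2 alone by -2.22 ± 0.26 and -2.05 ± 0.20.

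Higher doses moved the interferon-induced genes further. Cxcl9 lay at 7.20 and 6.66 with 1 µM and at 5.94 and 5.34 with 4 µM of the JAK3 inhibitor, and Cxcl10 at 6.51 and 6.71 and then at 5.93 and 5.55. Xcl1 lay at 7.20 and 6.94 and then at 6.40 and 6.94, a narrower span. The slope per 4-fold dose was -1.20 ± 0.15 for Cxcl9 (adjusted p = 0.00188, limma) and -0.91 ± 0.18 for Cxcl10 (adjusted p = 0.0434, limma). These were the 2 members called in the slope, against 0.137% of all genes called lower; Ccl3, Ccl4 and Xcl1 had slopes of -0.32 ± 0.15, -0.49 ± 0.12 and -0.30 ± 0.14. Because 3 equally spaced doses were fitted, the slope gives the 1 µM group no weight. Without JAK3 inhibitor 0.25 µM replicate 2, neither slope was called, though the Cxcl9 slope stayed at -1.20 while the Cxcl10 slope was -0.52. The Cxcl10 call was also lost without any 1 of the samples at 1 or 4 µM. A term for how the sample titles are written, in place of the intensity-set term, called Ccl3 (-0.78) and Ccl4 (-0.97) as well, with a median slope of all genes of -0.46. At 0.25 µM the fitted levels of Ccl3, Ccl4 and Xcl1 were nearer untreated, relative to their IL-2 rise, than those of Cxcl9 and Cxcl10. The Cxcl10 range over the alternatives, given below, overlapped those of Ccl3 and Ccl4. The part of this nearness to untreated in the slopes was not tested. Whether the slopes of the NK-secreted and interferon-induced genes differ was not tested either.

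With the JAK1 inhibitor, members were called lower at 0.25, 1 and 4 µM, fewer of them at the lowest of these. At 0.0625 µM, with 1 sample, 0 of 6 genes were called (0.0203% of all genes were called in either direction); 2 of the 6 had an unadjusted p below 0.05, Ccl4 at -0.59 and Cxcl10 at -1.21. At 0.25 µM, 3 of 6 were called lower, namely Cxcl10, Cxcl9 and Ccl4, against 1.52% of all genes. At 1 µM 5 of 6 were called lower against 2.31%, and at 4 µM, again with 1 sample, 5 of 6 against 2.63%. Ccl5, at 0.32, 0.45 and 0.49, was called higher at these 3 doses after quantile normalization (0.44, 0.54 and 0.58, adjusted p = 0.0168, 0.00219 and 0.0134, limma).

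At 0.25 µM of the JAK1 inhibitor, Xcl1 lay at 9.63 and 9.91, just below all 4 IL-2 samples. Its difference from IL-2 alone of -0.48 ± 0.23 was not called (adjusted p = 0.402, limma), and neither was that of Ccl3, which lay at 10.25 and 10.80 (-0.84 ± 0.26, adjusted p = 0.104). Ccl4 lay at 6.63 and 6.67, below every IL-2 sample, with a difference of -1.11 ± 0.20 (adjusted p = 0.00446, limma). Both interferon-induced genes fell and did so unevenly between replicates. Cxcl9 lay at 9.49 and 8.71 (-1.51 ± 0.26, adjusted p = 0.00257, limma). Cxcl10 lay at 8.11 and 6.95, all below its IL-2 samples (-2.17 ± 0.30, adjusted p = 0.000558, limma). None of the 3 calls held without replicate 2 of this dose, the low-intensity sample, where the differences were -1.13 for Ccl4, -1.06 for Cxcl9 and -1.498 for Cxcl10. Without replicate 1 the Ccl4 call alone was lost (adjusted p = 0.0994), and without IL-2 replicate 1 Ccl3 was called as well (adjusted p = 0.0466).

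With 1 µM of the JAK1 inhibitor, Cxcl10 lay at 5.64 and 5.45, under its untreated samples, while Xcl1 lay at 8.32 and 7.52, still above its own. Cxcl9 lay at 6.72 and 6.24, Ccl3 at 9.38 and 8.65 and Ccl4 at 5.67 and 5.38. In the single sample at 4 µM, Xcl1 lay at 6.80, Ccl3 at 8.30, Ccl4 at 4.79, Cxcl9 at 5.37 and Cxcl10 at 5.64. All 5 genes were then within or below the untreated range. The slope per 4-fold dose over the 4 doses was called lower for these 5 genes, against 1.96% of all genes, and ran from -0.83 ± 0.10 for Ccl4 to -1.69 ± 0.13 for Cxcl9. With each sample centred on its median in place of the intensity-set term, the Cxcl10 slope was -1.01 and was not called (adjusted p = 0.0657, limma).

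To put the genes on a common footing, each fitted level was written as the percent of that gene's own IL-2 response left, on the log2 scale, where 0 is the untreated and 100 the IL-2 level. With the JAK3 inhibitor at 0.25 µM, the 3 responding NK-secreted genes kept 12.7 ± 6.8% (Xcl1), 18.9 ± 7.9% (Ccl4) and 23.0 ± 8.6% (Ccl3), and the interferon-induced genes kept 38.6 ± 8.2% (Cxcl10) and 43.4 ± 5.3% (Cxcl9; all ± SE). With the JAK1 inhibitor at the same dose, Xcl1 kept 85.9 ± 6.4%, Ccl3 70.9 ± 8.3%, Cxcl9 66.7 ± 5.3%, Ccl4 56.0 ± 7.4% and Cxcl10 37.7 ± 8.2%. By fitted value the order of the genes was thus not the same under the inhibitors, with Xcl1 lowest under one and highest under the other. At 1 µM of the JAK1 inhibitor Xcl1 kept 31.5 ± 6.4%, with a range of 18.4 to 45.4% over the alternatives that overlapped that of Ccl3 (up to 33.5%), and Cxcl10 was at -19.3 ± 10.01%. These percentages are a description without a test. Over the alternatives tried (single samples left out, quantile normalization, the low-intensity set alone), that of Cxcl10 at 0.25 µM ran from 18.2 to 58.0% under the JAK3 and from 19.05 to 57.4% under the JAK1 inhibitor. With the JAK3 inhibitor at that dose Ccl3 ran from 13.1 to 33.5%, Ccl4 from 14.9 to 24.4% and Xcl1 from 8.32 to 15.3%. The range of Xcl1 overlapped those of Ccl3 and Ccl4. With the JAK1 inhibitor at that dose the range of Xcl1 (81.1 to 90.6%) overlapped that of Ccl3 (59.8 to 81.7%).

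**Figure D2:**
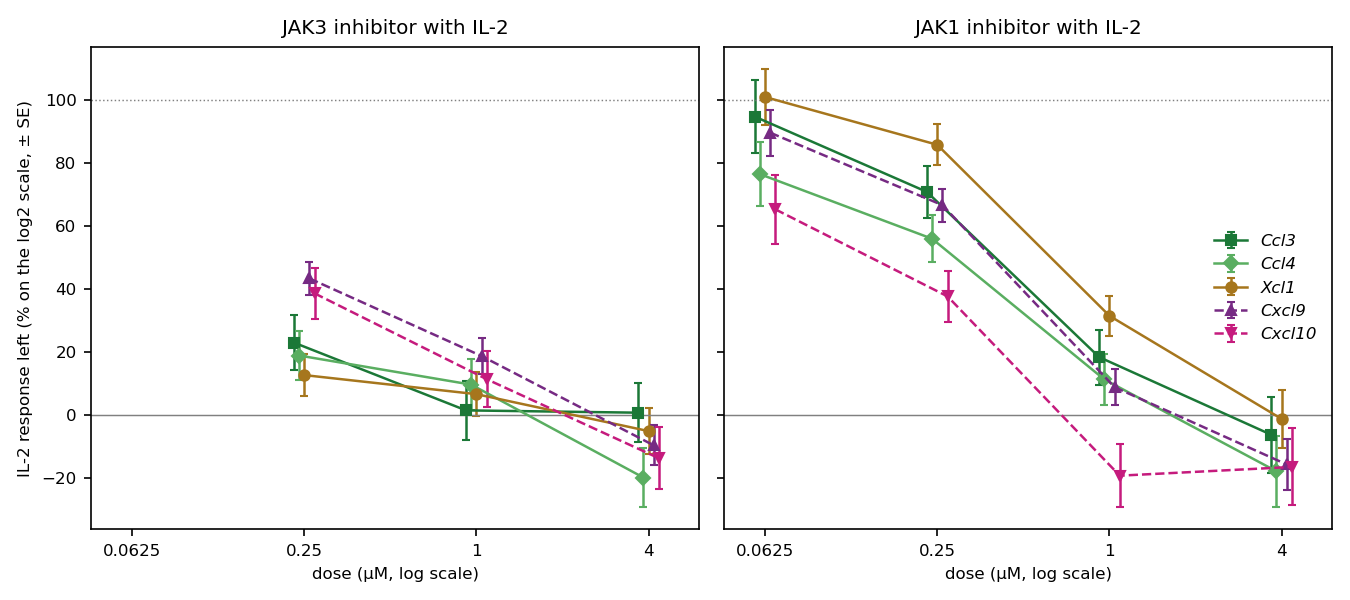
Percent of the IL-2 response left on the log2 scale (y axis, ± SE) against inhibitor dose (x axis, µM, log scale) for the 5 genes that rose with IL-2; solid lines are NK-secreted and dashed lines interferon-induced genes, 0 is the untreated and 100 the IL-2 level, and points are shifted slightly sideways. At 0.25 µM Xcl1 is at 12.7% with the JAK3 inhibitor and at 85.9% with the JAK1 inhibitor, while Cxcl10 is at 38.6% and 37.7%.

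The inhibitors were compared with each other at the 3 doses they share, which gave 18 gene and dose pairs for the 6 genes, each p adjusted over all genes at its dose. At 0.25 µM, 2 of 6 were called higher with the JAK1 than with the JAK3 inhibitor, against 0.238% of all genes. Xcl1 was 5.64-fold higher, a log2 difference of 2.50 ± 0.26 (95% interval 1.94 to 3.05, adjusted p = 6.97e-05, limma). Ccl3 was 2.60-fold higher (1.38 ± 0.29, interval 0.77 to 2.00, adjusted p = 0.0415, limma). In both genes each JAK1 inhibitor sample lay above each JAK3 inhibitor sample. With 2 samples per group such separation carries little weight, and its share over all genes was not computed. The Ccl3 call was lost without any 1 of the 4 samples compared, with differences of 1.07 to 1.70, whereas the Xcl1 call held in each case; in the low-intensity samples alone Xcl1 gave 2.65 and missed the threshold (adjusted p = 0.0698, limma).

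Ccl4 and Cxcl9 were also higher with the JAK1 inhibitor in every sample at 0.25 µM but were not called, at 0.94 (interval 0.45 to 1.42, adjusted p = 0.0927) and 1.05 (interval 0.43 to 1.67, adjusted p = 0.173, limma). Cxcl10 gave -0.03 with an interval of -0.76 to 0.70, so a difference of either sign within that span was not resolved. Within the intensity sets the Cxcl10 difference was 1.14 in the high-intensity samples and -1.21 in the low-intensity samples, 1 sample against 1 in each, while Xcl1 gave 2.34 and 2.65. Ccl5 gave -0.04 (interval -0.36 to 0.28).

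At 1 µM and at 4 µM, 0 of 6 genes and 0% of all genes were called between the inhibitors (limma). At 1 µM 2 members had an unadjusted p below 0.05, Xcl1 at 0.85 (interval 0.30 to 1.40) and Cxcl10 at -1.07 (interval -1.80 to -0.34), with opposite signs; both and Ccl3 were called when only the 2 groups compared were fitted. No member had one at 4 µM, where the intervals of the 6 genes reached from -1.03 to 0.81. Against untreated cells, 0 of 6 genes and 0% of all genes were called at 4 µM of either inhibitor (limma). In that comparison Ccl4 was the only member with an unadjusted p below 0.05, at -0.50 with the JAK3 inhibitor.

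**Figure D3:**
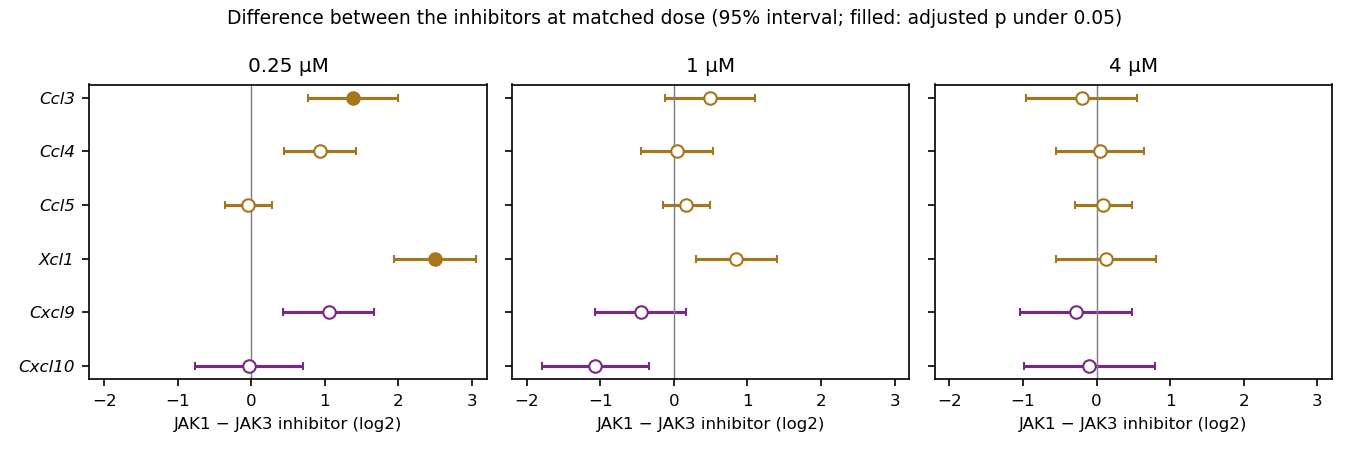
Log2 difference between the JAK1 and JAK3 inhibitor at matched dose (x axis, with 95% interval) for each gene (y axis); panels are the 3 shared doses, NK-secreted genes are brown, interferon-induced genes purple, and filled points are called. Xcl1 at 2.50 and Ccl3 at 1.38 are the called points, both at 0.25 µM, and Cxcl10 at that dose lies at -0.03.

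Ranked by fitted level over the 9 groups, Xcl1, Ccl3, Ccl4 and Cxcl9 shared the sequence from IL-2 and the lowest JAK1 inhibitor dose at the top through 0.25 µM of the JAK1 inhibitor to the other groups. Of the 8 steps between neighbouring groups, 1 was called for Xcl1 (between 0.25 and 1 µM of the JAK1 inhibitor, 1.85 ± 0.26, adjusted p = 0.00323, limma) and 1 for Ccl3 (between 0.25 µM of the JAK1 and of the JAK3 inhibitor). No neighbouring step was called for Ccl4, Ccl5, Cxcl9 or Cxcl10. The groups were ranked on the same values that the steps use, and neighbours in such a ranking lie close by construction. The step counts therefore only describe the order, and a missing call does not show equal levels. The share of steps called over all genes was not computed. In Cxcl10, the 0.25 µM groups of both inhibitors were neighbours at 7.53 and 7.56.

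**Figure D4:**
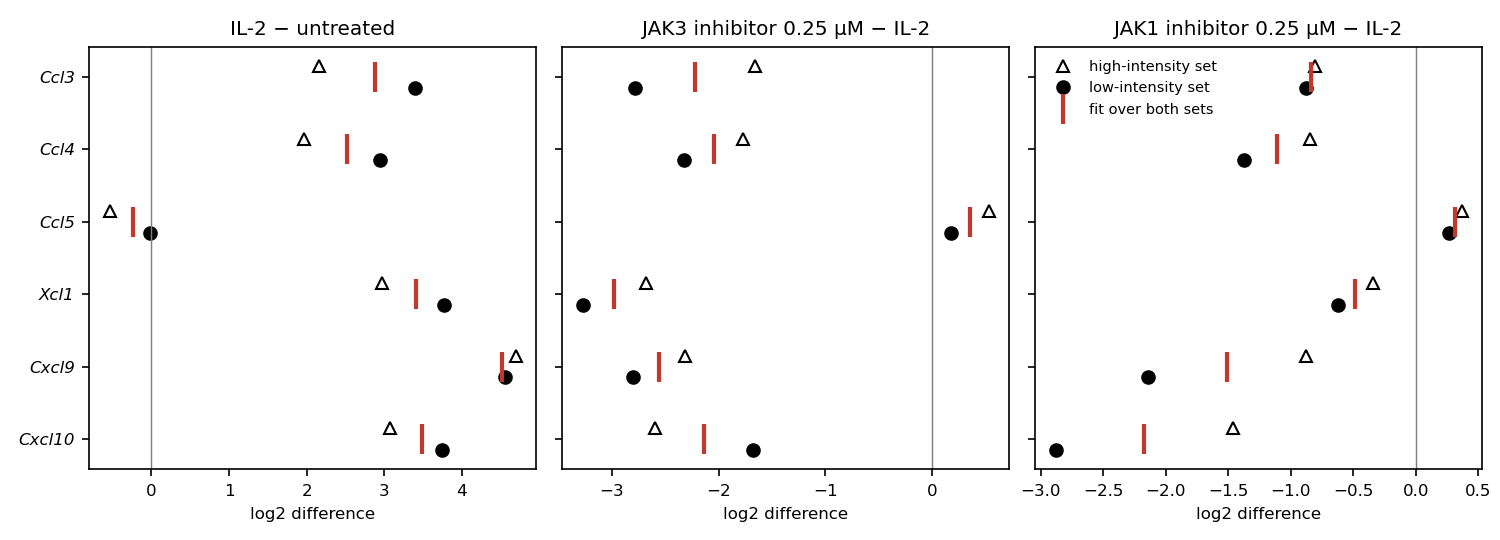
Log2 difference (x axis) of each gene (y axis) in the high-intensity samples (triangles), the low-intensity samples (circles) and the fit over both (red bars), for IL-2 against untreated and for each inhibitor at 0.25 µM against IL-2. The sets share their sign for the 5 genes that rose with IL-2, and differ most for Cxcl10 with the JAK1 inhibitor, at -1.46 and -2.88.

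Across the 19 scale-adjusted samples, which share the groups and the dose series, the members other than Ccl5 correlated with each other at a Pearson r of 0.82 (Xcl1 and Cxcl10) to 0.98 (Ccl3 and Xcl1). Cxcl9 and Cxcl10 correlated at 0.95, and Cxcl9 with Ccl4 at 0.97. Ccl5 ran against all others, at -0.56 to -0.73. The genes most like each member by the same measure were Bcl2 (0.99), Prag1 and Gzmb for Xcl1; Ccnd2 (0.98), Coro2a and Tnfrsf9 for Ccl3; Tnfrsf9 (0.97), Cish and Socs1 for Ccl4; Osm (0.96), Gbp7 and Gbp4 for Cxcl9; Csf1 (0.97), Ifi205 and Irgm1 for Cxcl10; and Emb (0.88), Ephx1 and Rnf13 for Ccl5.

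Over all genes, 6.56% rose with IL-2 and 9.15% were called in either direction. Of 30 other chemokine ligand genes, 1 rose and 3 fell. After quantile normalization 1 rose and 5 fell, with median centring in place of the intensity-set term 1 and 1, and with a term for how the sample titles are written (title form) in its place 0 and 1. Cxcl11, a further CXCR3 ligand, rose by 0.76, and Ccl9, Ccl6 and Ppbp fell by 1.74, 0.93 and 0.64. Between the inhibitors at 0.25 µM 0 of the 30 were called. Of 5 receptor genes of the members analysed here, 0 were called with IL-2. Cxcr3, the receptor of Cxcl9 and Cxcl10, was higher by 0.78 with 0.25 µM of the JAK1 inhibitor than with IL-2 alone (adjusted p = 0.0375, limma). With either replacement of the intensity-set term, 0 of the 5 receptors were called there. Ccr1, a receptor of Ccl3 and Ccl5, was higher by 0.75 with 4 µM of the JAK3 inhibitor (adjusted p = 0.0142, limma).

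Among 14 genes of interferon signalling, 6 rose and 1 fell with IL-2. Over all genes 6.56% rose and 9.15% were called in either direction. Ifng, the gene of interferon-gamma, rose by 3.78, and the transcription factor genes Irf7, Stat2, Irf1, Irf8 and Irf9 rose by 2.10, 1.74, 1.69, 1.24 and 0.81. Ifngr2, a receptor chain, fell by 0.85. After quantile normalization 6 of the 14 genes rose and 4 fell with IL-2. With 0.25 µM of the JAK3 inhibitor, Ifng differed from IL-2 alone by -3.77 and Irf7 by -0.31 (adjusted p = 0.840), and with the same dose of the JAK1 inhibitor by -1.002 and -1.74 (adjusted p = 0.00209, limma). At that JAK1 inhibitor dose 4 of the 14 genes were called lower, beside 1.52% of all genes. At the same JAK3 inhibitor dose 3 were called lower and 1 higher, beside 2.26% of all genes called lower. The JAK1 inhibitor count was 1 with median centring and 0 with the title-form term in place of the intensity-set term. The JAK3 inhibitor count of genes called lower was then 2 and 1. Ifng was 2.76 higher with the JAK1 than with the JAK3 inhibitor at 0.25 µM (adjusted p = 1.56e-06, limma), next to 2.50 for Xcl1, 1.05 for Cxcl9 and -0.03 for Cxcl10; Irf7 gave -1.43 and was not called (adjusted p = 0.0631). After quantile normalization 2 of the 14 genes were called lower and 1 higher in that comparison, beside 1.51% of all genes in either direction.

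Markers of other cell types moved along with these changes. With IL-2, 10 of 12 NK cell markers rose and 7 of 13 macrophage and monocyte markers fell, as did 6 of 10 neutrophil and 3 of 9 B cell markers. Of 10 dendritic cell markers 2 rose and 2 fell, and 0 of 9 T cell markers were called. Over all genes 9.15% were called in either direction. With 0.25 µM of the JAK3 inhibitor, 11 NK cell markers were lower than with IL-2 alone. Higher were 7 macrophage and monocyte, 5 neutrophil, 4 B cell and 2 dendritic cell markers, beside 5% of all genes called in either direction. Median centring in place of the intensity-set term left 6 NK markers lower, and 7, 0, 0 and 1 of the other markers higher in that order. The title-form term in its place left 5 NK markers lower, and 6, 1, 0 and 1 of the others higher. The summed scale-adjusted intensity of the NK markers was 3264 to 4077 in untreated and 9834 to 12928 in IL-2 samples, and that of the macrophage and monocyte markers 6063 to 6815 and 1932 to 2521. The B cell sum was 7335 to 8234 in untreated and 6032 to 6621 in IL-2 samples, and the neutrophil sum 2923 to 3780 and 1520 to 1852. Markers of other cell types were thus present in these samples, but sums of different lists do not give cell shares. Klrb1c, which encodes NK1.1, rose by 1.69, and Csf1r, the receptor of macrophage growth factor, fell by 1.93. For IL-2 against untreated, neither replacement of the intensity-set term gave a call of the opposite direction for the NK, macrophage and monocyte, neutrophil or B cell lists. With IL-2, 1 of 10 neutrophil markers was lower under either, and 1 of 9 B cell markers with median centring and 0 with the title-form term.

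The marker sums followed the inhibitors too. At 0.25 µM the macrophage and monocyte sum was 5797 to 6685 with the JAK3 and 3753 to 4032 with the JAK1 inhibitor, and the NK sum 4112 to 4218 and 8354 to 9750. Between the inhibitors at that dose 4 of 12 NK markers were higher with the JAK1 inhibitor and 5 of 13 macrophage and monocyte markers lower. Over all genes 0.451% were called in either direction. With median centring or the title-form term in place of the intensity-set term, 1 NK marker and 0 macrophage and monocyte markers were called. Their part in the chemokine differences was not tested. In bulk RNA, fewer cells of a type and less RNA per cell cannot be told apart.

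**Figure D5:**
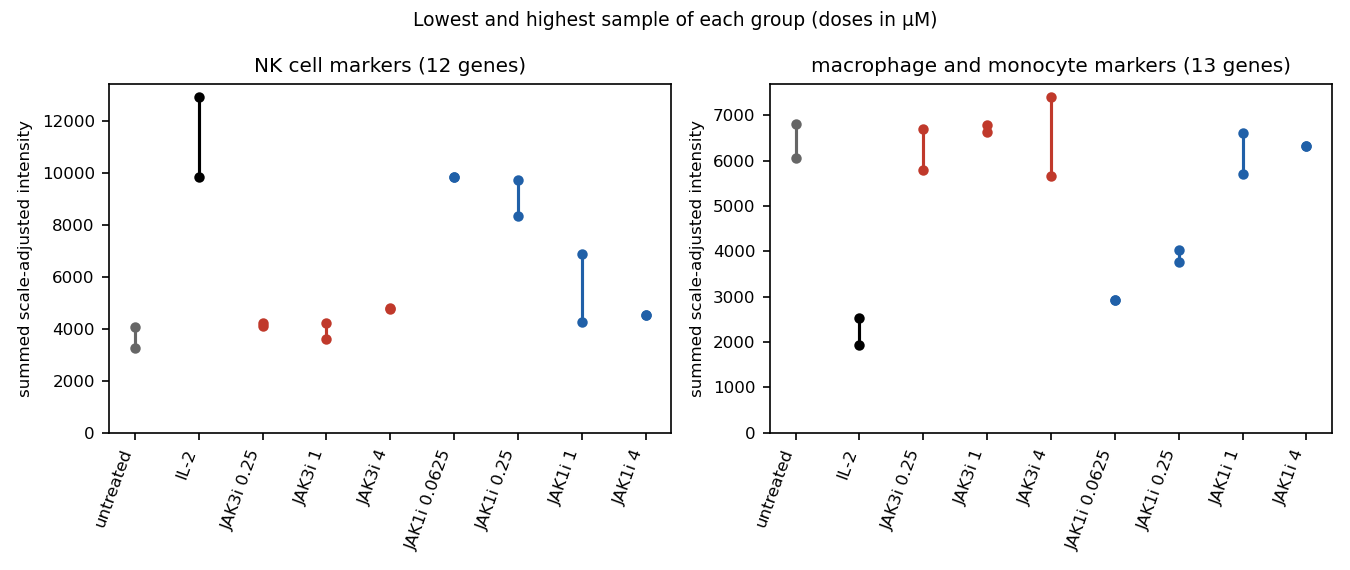
Summed scale-adjusted intensity (y axis, linear, from 0) of 12 NK cell markers and 13 macrophage and monocyte markers by group (x axis, doses in µM); each line joins the lowest and highest sample of a group. The NK sum is highest with IL-2 (9834 to 12928) and the macrophage and monocyte sum lowest there (1932 to 2521).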

How the data were processed

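The deposited table holds 1 intensity per probe set and array, made by the authors with Affymetrix Power Tools and RMA per the submitters' processing notes; versions, build and the reason for the 2 scales are not given in the sources used here. Of 24922 probe sets, 21425 had 1 gene symbol, 1399 several and 2098 none in the annotation used; the brightest per gene gave 19752 genes. Intensities were turned into log2 with no pseudocount. limma 3.58.1 (R 4.3.3) fitted a mean per group plus a term for the intensity set, with an intensity trend in eBayes and Benjamini-Hochberg adjustment over all genes per comparison. The fit was tested on simulated data. The number of arrays limits the precision. Members, lists and the intensity-set term were chosen with earlier results of these data known. The genes named were the 6 members, up to 4 other ligands and 6 interferon signalling genes by smallest p, called receptors, the 3 nearest genes per member and fixed markers; Ifngr2, Irf9, Cxcr3 and Ccr1 were added after their values were seen, to complete counts. Whether replicate numbers pair samples could not be tested, since number and intensity set coincide in 4 inhibitor groups. Alternatives changed the scaling, the batch term, the samples fitted, the probe set, the dim-gene filter, an added 16 before log2 and the variance model, and left out single samples. Promoters came from RefSeq, GRCm38.p6.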

Additional observations from a re-analysis of the deposited data

Results flagged for a closer look

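Cxcl10 in the 4 IL-2 samples had 1 sample apart from the others: replicate 3 at 10.19 against 9.47 to 9.59, a gap of 0.832 of the group's range, just past Dixon's 95% critical value. Of the 6 genes, all tested in this group, Cxcl10 was the only one past it. Replicates 1 and 2 were shifted by the fitted set term, 2.18 for Cxcl10 against a median of 1.64 over all genes. The gap depends on that term. Chance passes about 1 in 20 groups of independent values, which these are not, so no outlier is concluded.

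Xcl1 was 2.50 higher on the log2 scale with the JAK1 than with the JAK3 inhibitor at 0.25 µM, and Ccl3 was 1.38 higher, both by the limma test of the difference between the inhibitors. Each JAK1 inhibitor sample lay above each JAK3 inhibitor sample for both genes, but the share of all genes separated in this way was not computed. The NK and macrophage marker sums differed between these groups as well, and their part was not tested.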

How the results depend on the processing

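The comparisons were recomputed under each alternative that could give them a value; the high-intensity set alone gives none for 0.0625 or 4 µM or for the slopes. Median centring and the title-form term (a term for how the sample titles are written) each replace the intensity-set term, so centring changes the scaling and drops the term together. Of the results under the planned settings, 926 kept direction and side of the threshold, 41 lost the call, 33 gained one and 32 turned sign; leaving out single samples gave 397, 14, 2 and 25. The 5 calls of IL-2 against untreated held whichever sample was left out. The cause of the changes below was not tested, except that the high-intensity set alone has few samples.

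Members called changed as follows. JAK1 inhibitor at 0.25 µM against IL-2, 3 members: 5 under quantile normalization, 1 with median centring and no set term, 1 with the title-form term, 2 in the low-intensity set and 2 with the replicate block (Ccl4 lost in both), 6 with only the groups compared. JAK1 against JAK3 inhibitor at 0.25 µM, 2 members: 1 with median centring and no set term, 1 with the title-form term, 3 under quantile normalization, 3 with 16 added, 0 in the low-intensity set, 4 with only the groups compared. The JAK3 inhibitor slope, 2 members: 1 under quantile normalization, 0 with median centring and no set term, 4 with the title-form term, 1 with 16 added. The JAK1 inhibitor slope, 5 members: 4 with median centring and no set term. Fitting only the groups compared gave 3 in place of 0 for the JAK1 inhibitor at 0.0625 µM and for the inhibitors at 1 µM, and the title-form term gave 3 in place of 0 for 4 µM of the JAK3 inhibitor against untreated. The high-intensity set alone called 0 members in IL-2 against untreated, in either inhibitor at 0.25 or 1 µM and between the inhibitors at 0.25 µM, and 0 genes in all (limma). Leaving out single samples gave 0 to 4 for the JAK1 inhibitor at 0.25 µM (0 without its replicate 2), 1 to 1 between the inhibitors at 0.25 µM, and 0 to 2 for the JAK3 slope (0 without 0.25 µM replicate 2).

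The labels do not say that replicate numbers pair samples, and the residuals cannot settle it, since number and intensity set coincide in 4 inhibitor groups. With the replicate number as a block, 4 members were called between the inhibitors at 0.25 µM, and signs turned to 0.73 (Ccl3) and 0.28 (Ccl5) for the JAK1 inhibitor at 0.0625 µM, -0.073 (Xcl1) between inhibitors at 4 µM, 0.72 (Xcl1) for 4 µM JAK3 inhibitor against untreated, and 0.36 (Ccl3) and 0.65 (Xcl1) for the JAK1 inhibitor there.

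Other signs turned as follows. Quantile normalization gave Ccl5 0.13 at 0.0625 µM; between inhibitors Ccl5 0.015 and Cxcl10 0.10 at 0.25 µM and Ccl4 -0.027 at 1 µM; and Ccl3 -0.099 for 4 µM JAK3 inhibitor against untreated. Median centring with no set term gave Xcl1 0.017 (JAK3) and 0.18 (JAK1) at 4 µM against untreated. The title-form term, which moves the median of all genes by -0.87 for the JAK3 inhibitor at 4 µM against IL-2, gave Ccl5 -0.45 there and Xcl1 -0.075 at 0.0625 µM; between inhibitors at 4 µM Ccl3 0.58, Cxcl10 0.89 and Cxcl9 0.68; against untreated Ccl3 -0.85 and Ccl5 -0.65; and a Ccl5 slope of -0.40. The low-intensity set gave Xcl1 -0.24 at 0.0625 µM, between inhibitors Ccl5 0.087 at 0.25 µM and Ccl3 -0.026 and Ccl5 -0.028 at 1 µM, and for 4 µM JAK1 inhibitor against untreated Ccl3 0.024 and Xcl1 0.035; fitting only the groups compared gave the same -0.24, 0.024 and 0.035. Cxcl10 between inhibitors at 0.25 µM was 1.14 in the high-intensity set and 0.0037 with 16 added.

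Leaving out single samples turned signs within these ranges. JAK1 inhibitor at 4 µM against untreated: Ccl3 -0.34 to 0.024, Xcl1 -0.18 to 0.035. JAK3 inhibitor there: Ccl3 -0.19 to 0.23, Xcl1 -0.44 to 0.092. JAK1 inhibitor at 0.0625 µM: Xcl1 -0.046 to 0.18, Ccl5 -0.066 to 0.058, Ccl3 -0.24 to 0.047. Between inhibitors at 0.25 µM: Ccl5 -0.14 to 0.054, Cxcl10 -0.72 to 0.65. At 1 µM: Ccl4 -0.16 to 0.24, Ccl5 -0.021 to 0.36. At 4 µM: Ccl3 -0.41 to 0.0080, Ccl4 -0.21 to 0.31, Cxcl10 -0.28 to 0.089, Cxcl9 -0.58 to 0.026, Xcl1 -0.14 to 0.40. Ccl5 JAK3 slope: -0.012 to 0.041.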
